A study of Mus musculus with 12 samples.

Results

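The ligands of the tumor necrosis factor (TNF) superfamily were followed in Sp37A3 cells, an immature dendritic cell (DC) line made from mouse spleen. The 10 ligand genes are a part of the family and were chosen with earlier results of these data known. They are Tnf, Lta, Ltb, Tnfsf9, Cd70, Tnfsf10, Tnfsf12, Tnfsf13, Tnfsf13b and Tnfsf15, which make up 10 of the 55401 genes in the count table. Another 8 ligands of the family are described at the end. Bulk mRNA sequencing covered 4 groups with 3 libraries each, 12 in all. CtrV cells carried an empty lentiviral CRISPR vector and expressed Siglec-E. EKO cells carried the same vector with 1 guide against Siglece, the gene of this inhibitory sialic acid receptor, and were a pool of several clones sorted for loss of Siglec-E protein. Whether the CtrV cells were cloned in the same way is not described. Cells of each line were left unpulsed or were pulsed with ovalbumin (OVA) protein, and all groups, controls included, were grown with GM-CSF and M-CSF and stimulated with lipopolysaccharide (LPS) for 24 h. The pulsed cells had received 0.1 mg/ml OVA for 2 h and then 0.1 ug/ml LPS, and no LPS dose was given for the RNA of the unpulsed cells. The comparison of the lines asked how the ligands differed when Siglece was targeted, and the comparison of pulsed with unpulsed cells asked whether antigen changed them. With 1 line of each kind, the targeting of Siglece and other differences between the lines cannot be told apart.

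TNF superfamily ligands are made as trimeric membrane proteins, and several are shed from the surface by proteases. They bind receptors of the TNF receptor superfamily, which pass the signal through TRAF adaptors to NF-κB or, where the receptor has a death domain, to caspases. On DCs they are known as inflammatory cytokines (TNF) and as costimulators of T cells (the products of Tnfsf9, Cd70 and Tnfsf15), while BAFF and APRIL, the products of Tnfsf13b and Tnfsf13, act mainly on B cells.

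The library totals lay between 27116201 and 39698572 counts, and levels are given as CPM, the count relative to the library size after TMM scaling. Tests used edgeR's quasi-likelihood fit over all libraries with the replicate number as a covariate, and a gene was called at an adjusted p under 0.05. Siglece mRNA was not lower in the libraries labelled EKO. Its level was 150 to 163 CPM in the 6 CtrV libraries and 166 to 235 CPM in the 6 EKO libraries. It was called higher (log2 fold change averaged over pulsing 0.36, edgeR adjusted p = 0.00037). An mRNA level cannot show whether the protein was lost, so it does not check the labels. The paper reports minimal or no Siglec-E on the pooled clones. Directions below are those of the labels, and the cells are called EKO-labelled. All 14 DC markers looked at passed the expression filter, and their summed level was 27780 to 29780 CPM over all groups. Most of that sum was Cd74. Averaged over pulsing 6 of the 14 were called higher and 4 lower, beside 31.3% and 29.1% of all tested genes. They ranged from Ciita (log2 fold change -0.45) and Csf2rb (-0.43) to Flt3 (1.33) and Batf3 (1.46). The summed level of 6 macrophage markers was 1329 to 1515 CPM in CtrV and 1723 to 1884 CPM in EKO-labelled libraries. Of 9 T cell markers, 2 passed the filter and Cd3e, Cd3g, Cd2 and Trac had no count in any library. Their sum was 3.91 to 6.04 CPM in CtrV and 8.60 to 11.2 CPM in EKO-labelled libraries. Of the 2 that passed, Cd5 was higher (log2 fold change averaged over pulsing 1.69) and Lck was not called (-0.07). None of 6 B cell markers and none of 7 granulocyte and mast cell markers passed the filter, and Ebf1 had no count. Of 6 natural killer cell markers 1 passed, with Ncr1, Prf1 and Eomes without a count. Stromal, epithelial and endothelial markers, of which 3 of 7 passed, summed to 191 to 226 CPM in CtrV and 318 to 375 CPM in EKO-labelled libraries. Col1a2 and Dcn had no count. Most of that sum was Pecam1, with a mean of 177 CPM in unpulsed CtrV and 320 CPM in unpulsed EKO-labelled cells. Averaged over pulsing Pecam1 (log2 fold change 0.86), Cdh5 (0.89) and Epcam (0.28) were higher. The part of these differences in the ligand results was not tested, and in bulk RNA a change in the number of cells of a type and a change in RNA per cell cannot be told apart.

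Promoter sequences were taken from RefSeq (GRCm38.p6), which gave windows of 300 bases, 250 before and 50 from the start site on, for 7 of the 10 ligands. Each window was searched on both strands for the NF-κB consensus, the AP-1 motif TGANTCA, the TATA box TATAAA and a motif of interferon regulatory factors, AANNGAAA. In the 32851 promoter windows of the table these were found in 4.51%, 7.81%, 13.6% and 23.9% respectively. The AP-1 motif reads alike on both strands, and no match in the windows printed here shares bases with another. Windows of 4 ligands are shown because these ligands include the most abundant pair per length in CtrV cells (Tnf and Ltb), the largest difference between the lines (Tnfsf15) and the 1 ligand with a match to the interferon-type motif on each strand (Tnfsf10). Tnf lies on the minus strand at chr17:35201958-35202257, Ltb on the plus strand at chr17:35194257-35194556, Tnfsf15 on the minus strand at chr4:63745010-63745309 and Tnfsf10 on the plus strand at chr3:27316827-27317126. Capitals mark the TATA box in Tnf, the NF-κB match in Ltb and the interferon-type matches in Tnfsf15 and Tnfsf10.
Tnf: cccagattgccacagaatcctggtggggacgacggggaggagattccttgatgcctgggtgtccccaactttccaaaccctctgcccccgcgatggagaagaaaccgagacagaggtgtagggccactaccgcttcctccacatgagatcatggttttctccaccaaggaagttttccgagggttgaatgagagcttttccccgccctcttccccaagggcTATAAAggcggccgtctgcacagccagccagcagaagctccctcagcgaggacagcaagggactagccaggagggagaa
Ltb: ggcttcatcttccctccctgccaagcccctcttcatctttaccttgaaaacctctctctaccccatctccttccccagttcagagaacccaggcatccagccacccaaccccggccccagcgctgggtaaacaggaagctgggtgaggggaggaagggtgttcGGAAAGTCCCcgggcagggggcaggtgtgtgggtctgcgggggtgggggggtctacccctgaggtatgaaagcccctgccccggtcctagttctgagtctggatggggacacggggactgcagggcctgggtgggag
Tnfsf15: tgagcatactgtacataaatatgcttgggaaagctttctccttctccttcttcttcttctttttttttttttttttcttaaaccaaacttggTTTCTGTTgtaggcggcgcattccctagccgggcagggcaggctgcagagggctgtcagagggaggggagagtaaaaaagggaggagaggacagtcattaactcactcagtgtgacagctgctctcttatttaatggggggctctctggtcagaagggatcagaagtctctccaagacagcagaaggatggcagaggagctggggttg
Tnfsf10: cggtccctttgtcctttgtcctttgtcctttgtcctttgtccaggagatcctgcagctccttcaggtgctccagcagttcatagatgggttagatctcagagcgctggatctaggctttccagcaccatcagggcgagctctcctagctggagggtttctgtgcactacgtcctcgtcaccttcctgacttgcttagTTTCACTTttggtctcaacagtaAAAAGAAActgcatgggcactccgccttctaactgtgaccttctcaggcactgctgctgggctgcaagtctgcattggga
In Tnf the TATA box started at position -29 from the start site. Ltb held the NF-κB consensus as GGGACTTTCC, read on the strand opposite to the gene, from -87 to -78. The matches in Tnfsf10 ran from -53 to -46 on the opposite strand and from -30 to -23 on the gene's strand, and the one in Tnfsf15 from -158 to -151 on the opposite strand. A match says that these letters stand in the window and was not tested as a binding site. The genes Ltb, Tnf and Lta lie next to each other on chromosome 17, with 3060 bases between Ltb and Tnf and 1157 between Tnf and Lta. Tnfsf9 and Cd70 lie further along the same chromosome, with 38239 bases between them.

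Tnfsf15, Cd70, Tnfsf9 and Tnf were higher in EKO-labelled than in CtrV cells, with and without OVA, and Tnfsf12 was lower. Tnfsf10 was higher too, but it passed the filter through 5 EKO-labelled and 0 CtrV libraries, so a call upwards was favoured by the filter, and the counts and medians that follow include it. Of the 10 ligands, 8 were tested, since 2 or more libraries had a log2 CPM over 0, and Lta and Tnfsf13 were not. In OVA-pulsed cells 5 of the 8 were higher and 1 was lower, beside 47.0% of all 14079 tested genes called in either direction, 25.1% higher and 21.9% lower. In unpulsed cells 5 were higher and 2, Tnfsf12 and Tnfsf13b, were lower, beside 46.4% of tested genes called, 24.5% higher and 21.9% lower. The 3 libraries of the EKO-labelled group lay wholly above or wholly below those of CtrV for 7 of the 10 ligands in OVA-pulsed cells (5 above, 2 below), which held for 52.9% of all tested genes (27.0% above, 25.9% below). In unpulsed cells it also held for 7 ligands (5 above, 2 below), beside 47.1% of tested genes (24.1% above, 22.9% below). Tnfsf10 was above there by a narrow margin (0.623 CPM over 0.618 CPM). The untested Lta and Tnfsf13 overlapped in both treatments. All 7 were therefore among the 8 tested ligands, the basis that matches these shares. The median log2 fold change of the 8 tested ligands was 1.25 in OVA-pulsed and 1.13 in unpulsed cells, and that of all tested genes was 0.00 in both. Separate cultures are not described for the replicates, so p-values measure the spread between these libraries.

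**Figure D1:**
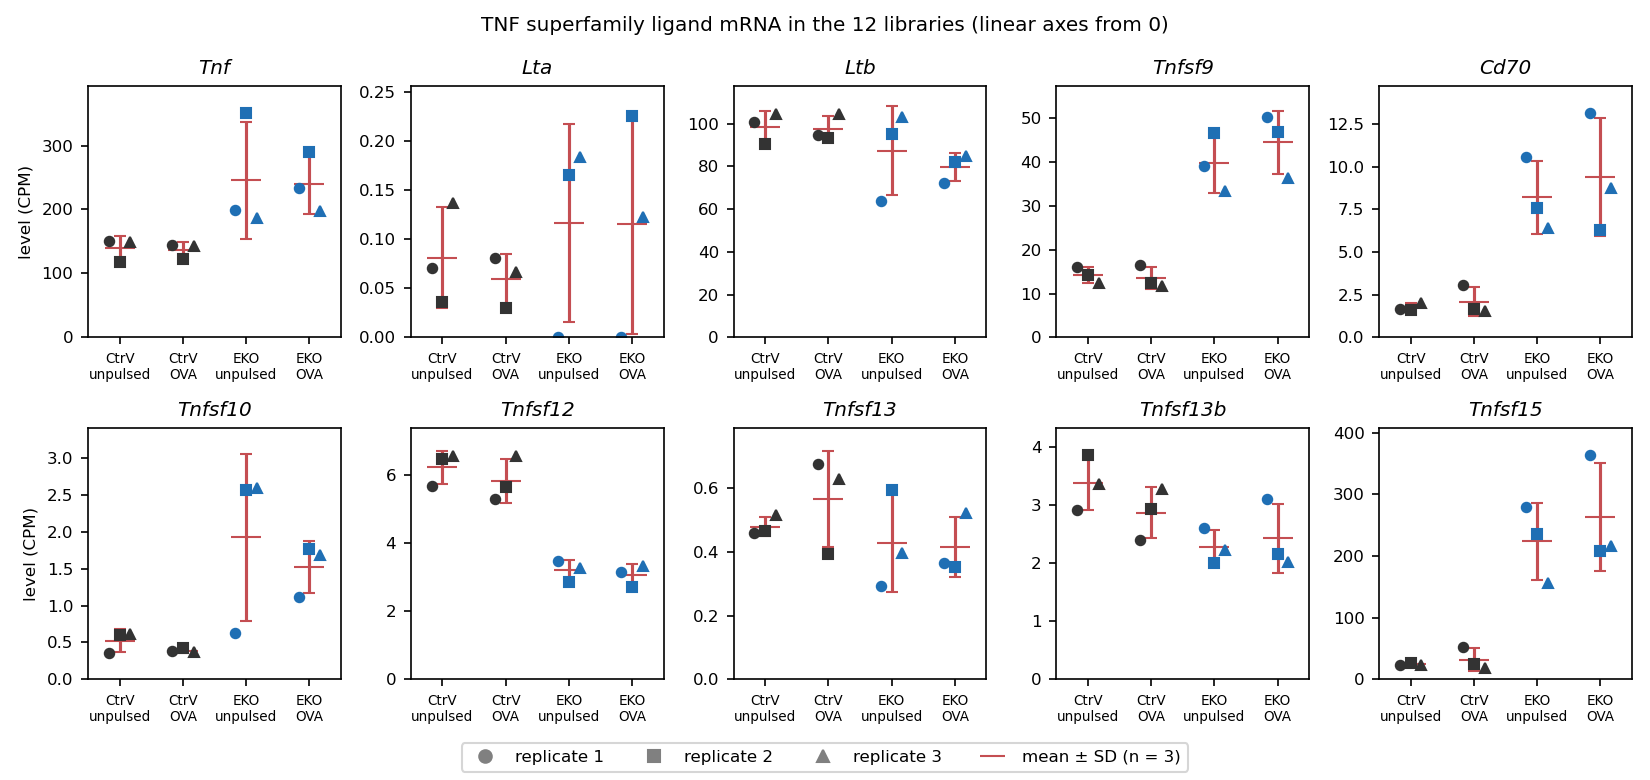
Level of each of the 10 ligand mRNAs (y axis, CPM, linear from 0, a scale of its own for each gene) in the 12 libraries, by line and pulsing (x axis). Points are libraries, with the shape giving the replicate number, and red bars the mean ± SD of 3 libraries. Tnfsf15, Cd70, Tnfsf9 and Tnf lie higher in every EKO-labelled library than in any CtrV library, and Tnfsf12 lies lower.

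Tnfsf15 encodes TL1A, a ligand of the death receptor DR3 that costimulates T cells, and had the largest difference of the 8 tested ligands. In OVA-pulsed cells its level was 52.9, 24.2 and 18.8 CPM in CtrV replicates 1 to 3 and 364, 208 and 217 CPM in EKO-labelled replicates. In unpulsed cells it was 23.8, 26.96 and 23.3 CPM in CtrV and 280, 236 and 156 CPM in EKO-labelled libraries. The groups were far apart, and the lowest EKO-labelled library stood above the highest CtrV library whichever way the cells were pulsed. The fitted difference was 8.55-fold with OVA (log2 fold change 3.10, SE 0.234, adjusted p = 2.3e-06) and 8.70-fold without (3.12, SE 0.237, adjusted p = 2.5e-06). Replicate 1 was the highest OVA-pulsed library of both lines.

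Cd70 encodes the ligand of CD27 on T cells. Its level in OVA-pulsed cells was 3.05, 1.69 and 1.56 CPM in CtrV and 13.2, 6.30 and 8.75 CPM in EKO-labelled replicates 1 to 3. In unpulsed cells it was 1.66, 1.57 and 2.02 CPM in CtrV and 10.6, 7.61 and 6.42 CPM in EKO-labelled libraries. The lowest EKO-labelled library again lay above the highest CtrV library. The difference was 4.44-fold with OVA (log2 fold change 2.15, SE 0.192, adjusted p = 7.6e-06) and 4.62-fold without (2.21, SE 0.207, adjusted p = 1.2e-05).

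Tnfsf9 encodes 4-1BBL, the ligand of the costimulatory receptor 4-1BB on T cells, and had the smallest error of the 8 tested ligands. Its level with OVA was 16.5, 12.5 and 11.8 CPM in CtrV and 50.4, 46.8 and 36.5 CPM in EKO-labelled cells. Without OVA it was 16.0, 14.2 and 12.4 CPM in CtrV and 39.2, 46.8 and 33.3 CPM in EKO-labelled cells. All EKO-labelled libraries exceeded all CtrV libraries. The difference was 3.27-fold with OVA (log2 fold change 1.71, SE 0.0995, adjusted p = 3.3e-07) and 2.80-fold without (1.49, SE 0.101, adjusted p = 1.1e-06). Of its 1290 exon bases, 14.9% overlap Gm11110 on the opposite strand, and the sources used here do not say if reads were counted by strand.

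Tnf encodes TNF, the ligand of TNFR1 and TNFR2 and an early product of LPS-stimulated DCs. In OVA-pulsed cells it stood at 145, 122 and 143 CPM in CtrV and at 234, 290 and 197 CPM in EKO-labelled replicates 1 to 3. In unpulsed cells it stood at 151, 118 and 149 CPM in CtrV and at 199, 351 and 187 CPM in EKO-labelled replicates. The groups did not overlap, although the EKO-labelled libraries spread widely and replicate 2 was the highest of them under both treatments and the lowest of the CtrV libraries. The difference was 1.73-fold with OVA (log2 fold change 0.79, SE 0.214, adjusted p = 0.011) and 1.71-fold without (0.78, SE 0.216, adjusted p = 0.013). Within each treatment the call depended on replicate 2. With OVA the log2 fold change was 0.59 without CtrV replicate 2 (edgeR adjusted p = 0.072) and 0.68 without EKO-labelled replicate 2 (0.052). In unpulsed cells it was 0.54 without CtrV replicate 2 (edgeR adjusted p = 0.071) and 0.45 without EKO-labelled replicate 2 (0.053). The pairs of replicates 1 and 3 had log2 differences of 0.69 and 0.46 with OVA and of 0.39 and 0.32 without. Averaged over pulsing the log2 fold change was 0.78 (SE 0.153, edgeR adjusted p = 0.0011), and it kept its call in each of the 12 fits that left out 1 library (lowest 0.63, largest adjusted p = 0.0051).

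Ltb encodes lymphotoxin β, which anchors lymphotoxin heterotrimers to the membrane for the LTβ receptor, and it did not follow its neighbour Tnf. Its level with OVA was 94.8, 93.1 and 104 CPM in CtrV and 72.4, 81.9 and 84.8 CPM in EKO-labelled replicates. Without OVA it was 100.8, 90.4 and 104 CPM in CtrV and 63.7, 94.98 and 103 CPM in EKO-labelled replicates. In OVA-pulsed cells every EKO-labelled library lay below every CtrV library, and in unpulsed cells the groups overlapped because replicates 2 and 3 lay within the CtrV range. The log2 fold change was -0.29 with OVA (SE 0.115, adjusted p = 0.059) and -0.19 without (SE 0.116, adjusted p = 0.20), so neither was called. Averaged over pulsing it was -0.24 (SE 0.0818, adjusted p = 0.025), where all 8 tested ligands were called (5 higher, 3 lower) beside 60.5% of all tested genes (31.3% higher, 29.1% lower). That call was lost without the replicate block (adjusted p = 0.073) and in 4 of the 12 fits that left out 1 library (the largest adjusted p was 0.060), namely those without replicate 1 of CtrV in either treatment or without EKO-labelled OVA replicate 1 or 3.

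Lta, the gene of lymphotoxin α, which forms a soluble trimer or joins lymphotoxin β, was at the edge of detection. It had 3, 1 and 2 counts in OVA-pulsed CtrV and 0, 7 and 4 in OVA-pulsed EKO-labelled libraries. It had 2, 1 and 4 counts in unpulsed CtrV and 0, 5 and 6 in unpulsed EKO-labelled libraries. The groups overlapped, several libraries lay at or below the floor of 3 counts, and no difference was detectable at this depth.

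Tnfsf10 encodes TRAIL, a ligand of the death receptor encoded by Tnfrsf10b, and was scarce. It had 0.378, 0.422 and 0.364 CPM in OVA-pulsed CtrV and 1.123, 1.77 and 1.69 CPM in OVA-pulsed EKO-labelled libraries. In unpulsed cells it had 0.352, 0.608 and 0.618 CPM in CtrV and 0.623, 2.57 and 2.60 CPM in EKO-labelled libraries. The groups did not overlap in CPM, but unpulsed EKO-labelled replicate 1, with 17 counts, stood just above the highest CtrV library. Unpulsed CtrV replicates 2 and 3 had 17 and 18 counts, so in unpulsed cells the separation rested on the scaling of the libraries. The log2 fold change was 1.95 with OVA (SE 0.330, adjusted p = 0.00071) and 1.84 without (SE 0.315, adjusted p = 0.00078). No CtrV library passed the filter, so the gene could be tested only because it was high in EKO-labelled cells.

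Tnfsf12, the gene of TWEAK, a ligand of the Fn14 receptor, had the largest decrease of the tested ligands. Its level with OVA was 5.29, 5.64 and 6.56 CPM in CtrV and 3.16, 2.699 and 3.316 CPM in EKO-labelled cells. Without OVA it was 5.67, 6.47 and 6.55 CPM in CtrV and 3.48, 2.87 and 3.27 CPM in EKO-labelled cells. All EKO-labelled libraries lay below all CtrV libraries. The log2 fold change was -0.92 with OVA (SE 0.109, adjusted p = 5.9e-05) and -0.96 without (SE 0.112, adjusted p = 5.4e-05), a level 1.896-fold and 1.95-fold lower. Of the 1515 exon bases of Tnfsf12, 48.3% overlap Tnfsfm13, a readthrough gene on the same strand, so counts could be split between them. Tnfsfm13 was lower too, by log2 fold changes of -0.85 with OVA (adjusted p = 0.00014) and -0.76 without (adjusted p = 0.00037).

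Tnfsf13b encodes BAFF, a survival factor of B cells. Its level with OVA was 2.402, 2.93 and 3.28 CPM in CtrV and 3.11, 2.15 and 2.03 CPM in EKO-labelled replicates. Without OVA it was 2.92, 3.86 and 3.36 CPM in CtrV and 2.60, 2.01 and 2.23 CPM in EKO-labelled replicates. The groups were apart in unpulsed cells, and in OVA-pulsed cells EKO-labelled replicate 1 lay among the CtrV libraries. The log2 fold change was -0.57 without OVA (SE 0.203, adjusted p = 0.040) and -0.22 with OVA (SE 0.198, 95% interval -0.66 to 0.22, adjusted p = 0.38). The call in unpulsed cells was lost in 5 of 12 fits that left out 1 library, with an adjusted p of up to 0.17. These were the fits without unpulsed CtrV replicate 2 or 3, OVA-pulsed CtrV replicate 2, or unpulsed EKO-labelled replicate 2 or 3. Averaged over pulsing it was -0.40 (SE 0.142, adjusted p = 0.032), a call lost in 8 of the 12 fits.

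Tnfsf13, the gene of APRIL, lay below the filter with 13 to 25 counts in CtrV and 8 to 18 in EKO-labelled libraries. In OVA-pulsed cells it had 25, 13 and 19 counts in CtrV and 14, 11 and 17 in EKO-labelled libraries, and in unpulsed cells 13, 13 and 15 in CtrV and 8, 18 and 13 in EKO-labelled libraries. The groups overlapped in both treatments. Of its 1637 exon bases 60.0% overlap Tnfsfm13 on the same strand and 13.5% overlap Tnfsf13os on the opposite strand.

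**Figure D2:**
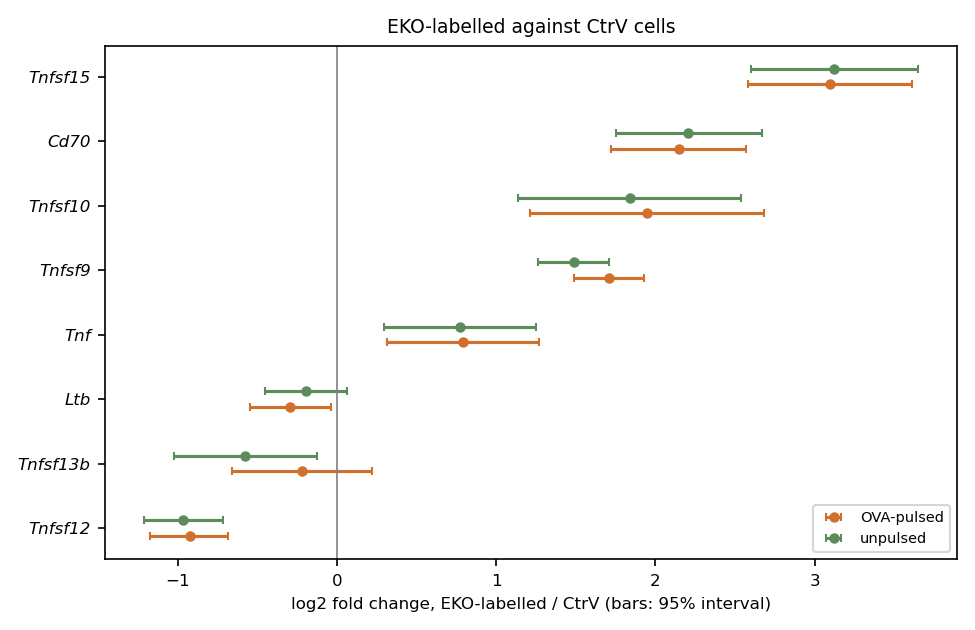
Log2 fold change of EKO-labelled over CtrV cells (x axis) for the 8 tested ligands (y axis), with OVA (orange) and without (green). Points are edgeR estimates and bars their 95% intervals. The estimates with and without OVA have the same sign for every ligand, and run from -0.96 for Tnfsf12 to 3.12 for Tnfsf15 in unpulsed cells. They lie furthest apart for Tnfsf13b, at -0.22 with OVA and -0.57 without.

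To compare the ligands with each other, levels were divided by the exon length of each gene and given as CPM per kilobase. These lengths include bases shared with Tnfsfm13, 48.3% for Tnfsf12 and 60.0% for Tnfsf13. If reads on shared bases were not counted, Tnfsf12 and Tnfsf13 come out too low, so their places in the order are uncertain. In unpulsed CtrV cells the order of mean levels was Tnf (85.1 CPM per kilobase), Ltb (65.0), Tnfsf9 (11.0), Tnfsf15 (7.38), Tnfsf12 (4.11), Cd70 (2.08), Tnfsf13b (0.492), Tnfsf13 (0.293), Tnfsf10 (0.0999) and Lta (0.0587). Of neighbours in this order, only Tnfsf10 and Lta had libraries that overlapped. In OVA-pulsed CtrV cells the order was the same, and Tnfsf9 overlapped Tnfsf15, Tnfsf12 overlapped Cd70, and Tnfsf13b overlapped Tnfsf13. In unpulsed EKO-labelled cells the order was Tnf (150 CPM per kilobase), Tnfsf15 (66.8), Ltb (57.5), Tnfsf9 (30.8), Cd70 (9.74), Tnfsf12 (2.12), Tnfsf10 (0.366), Tnfsf13b (0.332), Tnfsf13 (0.261) and Lta (0.0839). There Tnfsf15 overlapped Ltb, and Tnfsf10, Tnfsf13b and Tnfsf13 overlapped in turn. In OVA-pulsed EKO-labelled cells Tnfsf15 (78.5 CPM per kilobase) lay above Ltb (52.6) in every library.

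The make-up of the ligand mRNA differed between the lines in the places of Ltb and Tnfsf15 below Tnf. As a share of the summed CPM per kilobase of the 10 ligands, Tnf took 47.7% ± 1.20 (SD, n = 3) in OVA-pulsed CtrV and 44.9% ± 6.40 in OVA-pulsed EKO-labelled cells. The share of Ltb was 36.8% ± 3.05 in OVA-pulsed CtrV and 16.4% ± 3.23 in EKO-labelled cells. That of Tnfsf15 was 5.37% ± 2.73 and 23.9% ± 6.16. Unpulsed cells gave 37.0% and 18.6% for Ltb and 4.24% and 21.3% for Tnfsf15. The ratio of Tnf to Ltb per kilobase was 1.21 to 1.42 in the CtrV libraries and 1.67 to 3.42 in the EKO-labelled libraries, with no overlap. The summed level itself was 158 to 188 CPM per kilobase in CtrV and 265 to 396 in EKO-labelled libraries, so the smaller share of Ltb came with a larger sum.

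**Figure D3:**
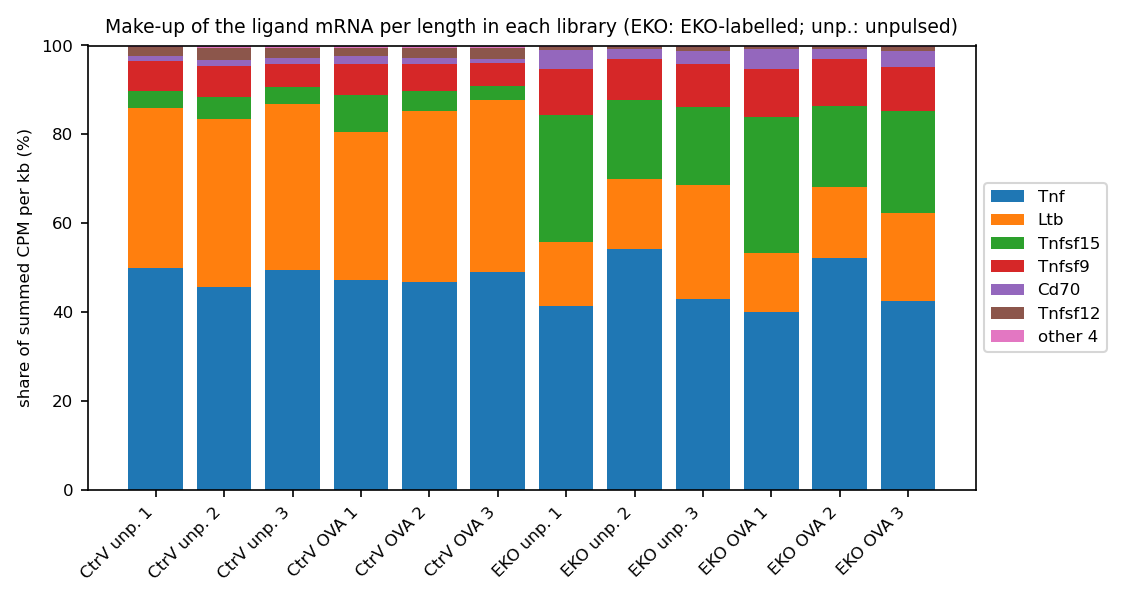
Share of each ligand (y axis, percent) in the summed CPM per kilobase of the 10 ligands, for each of the 12 libraries (x axis). Colours are ligands, with the 4 scarcest (Lta, Tnfsf10, Tnfsf13 and Tnfsf13b) summed. Ltb takes 33.3% to 38.7% in CtrV libraries and 13.4% to 25.6% in EKO-labelled libraries.

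Pulsing with OVA was not seen to change any ligand. None of the 8 tested ligands was called between OVA-pulsed and unpulsed cells of either line, and of all 14079 genes 0 (0%) were called by edgeR, with 231 (CtrV) and 394 (EKO-labelled) at an unadjusted p under 0.05. DESeq2 and limma voom likewise called 0 genes in each line. In CtrV cells the log2 fold change of Tnf was -0.03 (95% interval -0.50 to 0.44), and that of Tnfsf15 was 0.25 (-0.27 to 0.76). The widest interval in CtrV was that of Tnfsf10, from -1.31 to 0.53. The difference between the lines depended on pulsing for 0 of the 8 ligands and 0 genes in all (269 at an unadjusted p under 0.05). For Tnf the 95% interval of that dependence ran from -0.65 to 0.68, for Tnfsf9 from -0.09 to 0.53 and for Tnfsf13b from -0.28 to 0.98. A dependence within these bounds was not excluded.

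**Figure D4:**
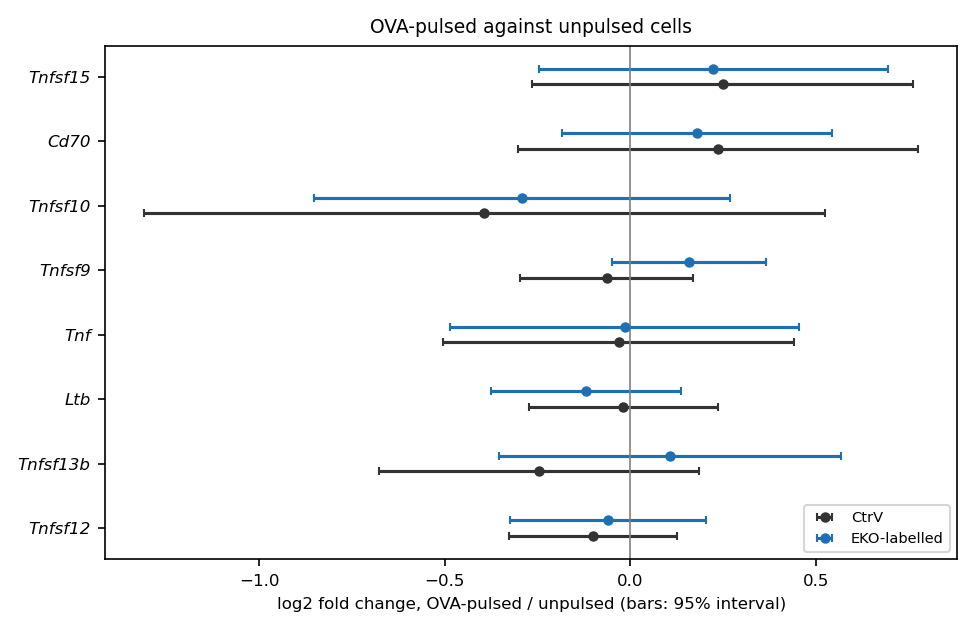
Log2 fold change of OVA-pulsed over unpulsed cells (x axis) for the 8 tested ligands (y axis), in CtrV (black) and EKO-labelled cells (blue). Points are edgeR estimates and bars their 95% intervals, and all 16 intervals cross 0.

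Replicate 1 of the EKO-labelled line stood apart from replicates 2 and 3 over the whole table and in the ligands. A chi-square statistic of the counts per degree of freedom, near 1 for libraries that differ by sampling alone, was 32.6 and 38.3 between unpulsed EKO-labelled replicate 1 and the others and 6.49 between replicates 2 and 3. With OVA it was 35.3 and 21.8 against 10.2. CtrV libraries also differed: in unpulsed CtrV it was 21.8 and 20.0 for replicate 3 and 4.29 between the others, and in OVA-pulsed CtrV 12.2 and 17.9 for replicate 1 and 6.90 between the others. Both EKO-labelled replicates 1 had the lowest Ltb and the highest Tnfsf15 and Cd70 of the 12 libraries, and the lowest Tnfsf10 of their groups. Without replicate 1 of any group, a setting chosen after seeing the data, 8 ligands were called with OVA (5 higher, 3 lower), beside 42.1% of all tested genes (22.4% higher, 19.6% lower). Without OVA 7 ligands were called (5 higher, 2 lower), beside 41.7% of genes (21.5% higher, 20.2% lower). Tnfsf15 then had log2 fold changes of 3.319 and 2.94, Cd70 of 2.20 and 1.96, and Tnfsf10 of 2.12 and 2.07, with and without OVA. Ltb was called with OVA at -0.24 (edgeR adjusted p = 0.012), its unpulsed difference turned to 0.03 (adjusted p = 0.78), and averaged over pulsing it was not called, at -0.11 (adjusted p = 0.066). Tnfsf13b was then called with OVA as well, at -0.57 (edgeR adjusted p = 0.019).

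The genes whose levels ran most closely with each ligand were found by Pearson's r of log2 CPM over the 12 libraries. The libraries share 2 lines that differ in many genes, so r is also given within groups, over deviations from the 4 group means. These deviations include EKO-labelled replicate 1, which stood apart in both treatments. How far r within groups rests on those libraries was not tested. Tnfsf15 was most like Tnfaip2 (r = 0.998, 0.972 within groups), Peli1 (0.996, 0.942 within groups) and Itgb8 (0.994, 0.943 within groups). Cd70 was most like Cd274, the gene of PD-L1 (r = 0.993, 0.969 within groups), Slc7a7 and Myo1g. Ube2w (r = 0.993, 0.907 within groups) and Peli1 (0.992, 0.895 within groups) were among the genes most like Tnfsf9. Among the ligands, Cd70 and Tnfsf15 had r = 0.989 and Tnfsf9 and Tnfsf15 r = 0.980, while Tnf and Ltb had r = -0.364. For pairs of ligands r was taken over all 12 libraries only. A gene pair that differs strongly between the lines has a large r by that difference alone. Tnf was most like Mettl3 (r = 0.942, 0.796 within groups) and Ltb most like Gnas (r = 0.964, 0.991 within groups) and Rpl3 (0.961, 0.962 within groups). Tnfsf10 was most like Gm20559 (r = 0.976, 0.931 within groups) and Tnfsf13b like Ntan1 (r = 0.900, 0.824 within groups). Tnfsf12 was most like Tnfsfm13 (r = 0.990, 0.925 within groups), with which it shares exon bases.

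The receptors of these ligands did not move in one direction. Of 12 receptor genes, 10 were tested, and averaged over pulsing 3 rose and 5 fell, beside 31.3% and 29.1% of all tested genes, with a median log2 fold change of -0.13. The largest decrease was that of Tnfrsf13c, the gene of the BAFF receptor, at 45.01 CPM ± 6.41 (SD, n = 3) in OVA-pulsed CtrV and 3.62 ± 1.31 in OVA-pulsed EKO-labelled cells (log2 fold change averaged over pulsing -3.69, edgeR adjusted p = 1.2e-08). Tnfrsf25, the gene of DR3, to which TL1A binds, was lower at -2.46 (edgeR adjusted p = 6.6e-06), from 0.891 CPM to 0.126 CPM with OVA, and it passed the filter through 3 CtrV and 0 EKO-labelled libraries, so that a call downwards was favoured by the filter. Tnfrsf12a, the receptor of TWEAK, was lower (-1.28), as was its ligand, and Tnfrsf10b, the receptor of TRAIL, was lower (-0.91) where its ligand was higher. Ltbr, the receptor of lymphotoxin β, was -0.26 (edgeR adjusted p = 0.00011). Of the TNF receptors, Tnfrsf1b was higher (0.71, adjusted p = 0.00018) and Tnfrsf1a stood at 108 CPM with OVA in CtrV and 109 in EKO-labelled cells (0.00, SE 0.0498, adjusted p = 0.97). Tnfrsf13b, a receptor of BAFF and APRIL, was higher at 0.36 and Tnfrsf14 at 0.31, and Tnfrsf9, the receptor of 4-1BBL, was 0.25 (SE 0.190, adjusted p = 0.29). Cd27 had at most 2 counts and Tnfrsf17 none.

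Signalling genes of the family were next. Of 28 adaptors, kinases and NF-κB subunits, all tested, 15 were higher and 2 lower averaged over pulsing, beside 31.3% and 29.1% of all tested genes, with a median of 0.13. They ranged from Traf4 (-1.01) to Cflar, an inhibitor of caspase-8 (1.85), and the NF-κB subunit gene Rel was at 1.07. Of 10 brakes on NF-κB signalling 7 were higher and 1 lower, beside the same 31.3% and 29.1%, with a median of 0.76, led by Tnfaip3, the gene of the ubiquitin editor A20 (1.19), and Nfkbia, that of IκBα (1.11), with Cyld lower (-0.25) and Nfkbie at -0.02 (not called).

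**Figure D5:**
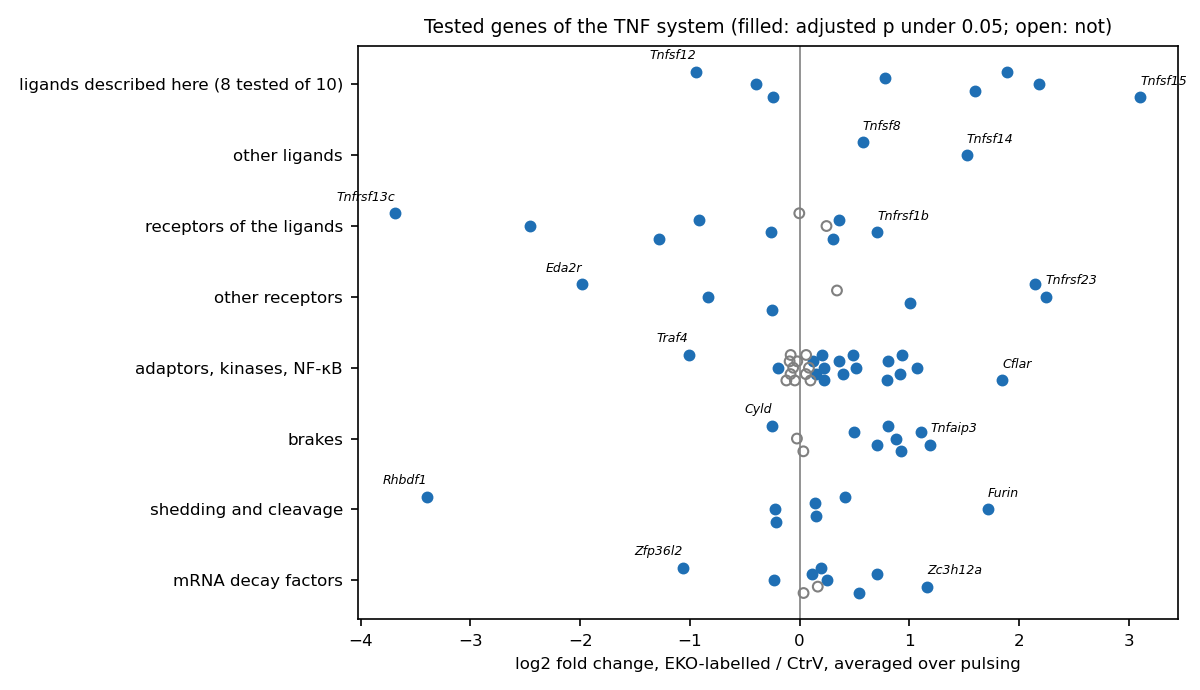
Log2 fold change of EKO-labelled over CtrV cells averaged over pulsing (x axis) for each tested gene of 8 lists of the TNF system (y axis). Each point is a gene, filled where edgeR's adjusted p was under 0.05, and the lowest and highest gene of each list are named. Ligands reach from Tnfsf12 (-0.94) to Tnfsf15 (3.11) and their receptors from Tnfrsf13c (-3.69) to Tnfrsf1b (0.71).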

How the data were processed

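The authors deposited 1 table of unnormalized read counts for the 12 libraries. Per the paper's methods and the labels, stranded mRNA libraries were aligned to mm10 with STAR, 1 location was reported for reads with several equal hits, and featureCounts counted the 5' read ends that fell on merged exons of Ensembl genes. The use of strand in counting is not given in the sources used here. Equal hits and overlapping exons make the counts of near-identical and overlapping genes uncertain. No unnamed rows and no unused columns were present. Names, positions and exon lengths came from the GENCODE annotation of GRCm38, which is not the one used for counting.

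Tests used edgeR 4.0.16 in R 4.3.3 (quasi-likelihood fit, TMM, group and replicate number, Benjamini-Hochberg over 14079 genes), as the study's methods do, without a limit on the fold change. Deviations of same-numbered libraries of the 2 lines correlated at 0.448, 0.292 and 0.289 with OVA and at 0.060, -0.012 and 0.263 without, so fits with and without the replicate block are given. Alternatives were RLE and upper-quartile scaling, DESeq2 1.42.0, limma voom (limma 3.58.1), no filter, 10 counts in every library, no block, an adjusted p under 0.01, an absolute log2 fold change of at least 1, the compared libraries alone, bias-adjusted deviances, and each library left out. The steps were tested on simulated counts. Groups came from the labels. The named genes are the 10 ligands, the 2 lowest and 2 highest tested genes of each list, and genes among the 3 most correlated with each ligand, of which 1 is not reported here. The ligands, the lists and this rule were chosen with earlier results of these data known. The remaining receptors and genes of ligand release were named after their values were seen. Comparisons share libraries: the averaged difference uses those of both treatments.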

Additional observations from a re-analysis of the deposited data

How the results depend on the processing

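The number of ligands called was 5 to 7 with OVA, 5 to 7 without and 6 to 8 averaged over pulsing when 1 library was left out, and the number of all genes called was 5177 to 6999, 5389 to 6484 and 7765 to 8317. With an absolute log2 fold change of at least 1 required, 4 ligands were called with OVA, 4 without and 4 averaged over pulsing. All of them were higher, and they included Tnfsf10, whose call upwards was favoured by the filter. Of all 14079 tested genes 1268, 1241 and 1254 were called, with 793, 783 and 792 higher and 475, 458 and 462 lower. Leaving out replicate 1 of every group gave 5 genes whose line difference depended on pulsing and 4 genes that differed with pulsing in EKO-labelled cells, in place of 0. Without the replicate block, 6, 7 and 7 ligands were called with OVA, without and averaged, and 5413, 5337 and 7477 genes; apart from Ltb averaged over pulsing (adjusted p = 0.073), no ligand call changed. Differences near 0 changed sign: leaving out libraries, replicate 1 of all groups included, gave -0.289 to 0.026 for Ltb in unpulsed cells, -0.097 to 0.018 for Nfkbie and -0.032 to 0.087 for Tnfrsf1a, and requiring 10 counts in every library gave 0.0012 for Tnfrsf1a. The Ltb difference with OVA passed the threshold under upper-quartile scaling (adjusted p = 0.033), DESeq2 (0.037), no filter (0.021) and the compared libraries alone (0.0051). The cause of these changes was not tested. Depth limits the scarce genes: Lta and Tnfsf13 did not pass the filter, and Tnfsf10 had 17 counts in 1 EKO-labelled library.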

Other observations

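Other ligands of the family were looked at beside the 10. Of 8, only 2 were tested. Tnfsf8, the gene of CD30 ligand, was higher in EKO-labelled cells, at 156 CPM ± 31.5 (SD, n = 3) in OVA-pulsed CtrV and 226 ± 16.6 in OVA-pulsed EKO-labelled cells (log2 fold change averaged over pulsing 0.58, edgeR adjusted p = 5.6e-05). Tnfsf14, the gene of LIGHT, had 0.308 CPM and 0.947 CPM with OVA (averaged log2 fold change 1.53), and it passed the filter through 3 EKO-labelled and 0 CtrV libraries, so that a call upwards was favoured by the filter. Fasl, Cd40lg, Tnfsf11 and Eda had no count in any library. Of 16 further receptor genes of the superfamily, some of which also bind TRAIL, 7 were tested, and 3 were higher and 3 lower averaged over pulsing, beside 31.3% and 29.1% of all tested genes. Cd40 rose from 38.6 CPM ± 10.1 to 175 CPM ± 41.1 with OVA (averaged log2 fold change 2.15) and the decoy receptor gene Tnfrsf23 by 2.24, while Relt was at -0.84. Eda2r was at -1.99, and it passed the filter through 6 CtrV and 0 EKO-labelled libraries, so that its call, 1 of the 3 lower, was favoured by the filter.

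Genes of enzymes that release ligands from the membrane, and of helpers listed with them, were called in either direction. Of the 7, 4 were higher and 3 lower averaged over pulsing, beside 31.3% and 29.1% of all tested genes. Furin, a protease that cleaves precursors of BAFF, APRIL and TWEAK, rose from 156 CPM ± 15.4 (SD, n = 3) in OVA-pulsed CtrV to 533 ± 26.2 in OVA-pulsed EKO-labelled cells (averaged log2 fold change 1.72, edgeR adjusted p = 1.1e-09), and Sppl2a was at 0.41. Rhbdf1, the gene of an inactive rhomboid that helps the TNF sheddase ADAM17 mature, had 1.98 CPM in OVA-pulsed CtrV and 0.195 CPM in OVA-pulsed EKO-labelled cells (averaged log2 fold change -3.40). It passed the filter through 6 CtrV and 0 EKO-labelled libraries, so that its call was favoured by the filter. Rhbdf2, listed beside Rhbdf1, had 69.6 CPM in OVA-pulsed CtrV and 78.5 CPM in OVA-pulsed EKO-labelled cells (averaged log2 fold change 0.15, edgeR adjusted p = 0.0037). Adam17 itself was at 0.14 (edgeR adjusted p = 0.0029), while Adam10 was at -0.21 and Sppl2b at -0.22. Of 10 factors that bind or degrade mRNAs such as that of Tnf, 6 were higher and 2 lower, beside the same 31.3% and 29.1%. Zc3h12a, the gene of Regnase-1, was at 1.16 and Zfp36, that of tristetraprolin, at 0.70, both higher, while Zfp36l2 was at -1.07 and Khsrp at -0.23, both lower.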
